A study of Mus musculus with 8 samples.

Results

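The probes described here are those of the miR-297, miR-466, miR-467 and miR-669 families, chosen by name: all mouse probes of the array whose miRNA carries exactly one of these 4 numbers, with any letter and either arm. They came to 72 of the 1135 miRNA probes, with 5 probes for miR-297, 27 for miR-466, 13 for miR-467 and 27 for miR-669. 7 of the 72 probes name several miRNAs that they cannot tell apart, so that the 72 probes carry 81 miRNA names. Among the other probes, 1024 were for other mouse miRNAs and 39 for miRNAs of murine viruses.

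Total RNA from livers of male C57BL/6N mice was labelled with Hy5 and hybridised to 8 one-colour mouse miRNA arrays. In the MCD group, 4 mice, 8 weeks old at the start, ate a diet lacking methionine and choline (MCD), which is used to induce steatohepatitis, for 15 weeks and received no metformin. In the MCD + metformin group, 4 mice ate the same diet and drank 2.4 mg/day of metformin, an oral biguanide that lowers blood glucose, for 15 weeks. All 8 mice were therefore on the MCD diet, and livers of mice on a normal diet were not analysed here. The diet causes weight loss and does not bring the insulin resistance of the human disease, which limits it as a model.

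MicroRNAs are short RNAs that pair with target messenger RNAs, mainly through the seed, bases 2 to 8 of the miRNA, and lower their translation or stability. These 4 families are rodent miRNAs that lie mostly in one large cluster inside an intron of Sfmbt2, a Polycomb group gene that is imprinted in mice. This cluster is best known from mouse embryonic stem cells and placenta, where it is strongly expressed. Its hairpins are related copies made largely of UG and CA repeats. In RefSeq annotation of mouse build GRCm38.p6, 71 of the 81 genes of these families lay inside Sfmbt2 on chromosome 2, and 10 lay elsewhere. By gene name, 56 of the 72 probes belonged to genes inside Sfmbt2, 9 to genes elsewhere and 5 to genes with copies in both places, while 2 probes, miR-466a-5p and miR-297a-5*, matched no gene.

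The mature sequences of 8 of the 72 members were matched by name in RefSeq (GRCm38.p6), all of them from genes outside Sfmbt2. They are printed to show how alike, and how repetitive, the RNAs are that these probes were made for, with the seed in capitals.
miR-466i-3p (chr13:17747552-17747573, + strand): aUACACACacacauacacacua
miR-467f (chr11:69635419-69635439, - strand): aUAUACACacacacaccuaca
miR-467g (chr5:34732872-34732892, - strand): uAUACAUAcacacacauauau
miR-466q (chr3:28419988-28420007, + strand): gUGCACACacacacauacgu
miR-669n (chr3:115979905-115979924, + strand): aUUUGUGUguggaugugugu
miR-466k (chr3:85467396-85467418, + strand): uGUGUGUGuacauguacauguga
miR-466j (chr10:60960802-60960824, + strand): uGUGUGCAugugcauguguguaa
miR-467h (chr9:115381898-115381919, + strand): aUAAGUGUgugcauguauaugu
The 8 seeds were all different. The first 4 sequences are made of A and C for 70% to 86.4% of their bases, and the other 4 of G and U for 68.2% to 90.0%. Stretches of the same letters run through several of them: miR-466i-3p and miR-466q share 14 bases in a row, and miR-466i-3p and miR-467f share 13. A run of UGUGUGU or ACACACA, 7 letters read on the mature strand only, was present in 7 of the 8, the exception being miR-467h. The same runs were counted in 4 of 318 other mouse probes with a sequence (1.26%) and in 16 of all 1679 mature sequences of the table (0.95%). The count of 4 left out sequences of a single chromosome, which the 318 did not, so it may be too low.

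On the array, the signal of a spot is the median brightness of its pixels in scanner units, before any subtraction. Each array carried 1818 BLANK spots without a probe and 24 negative control spots of 3 kinds, and both were used as a floor. The mean of the BLANK spots was 216 to 233 and that of the negative control spots 253 to 275 over the 8 arrays. A spot was counted as above the BLANK spots, or above the negative controls, when its signal exceeded their mean by 2 SD on the same array. That threshold lay at 242 to 259 for the BLANK spots and at 276 to 315 for the negative controls.

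The families sat at the level of the negative controls in these livers. The median signal of the 72 members was 265, 263.5, 263.5 and 263.5 on the arrays of MCD 1 to MCD 4. With metformin it was 273.5, 255.5, 259.5 and 266. The negative control spots had means of 271, 269, 259 and 275 on the MCD arrays and of 266, 259, 253 and 267 on the metformin arrays. The members' median was thus below the mean of the negative controls on 5 of the 8 arrays and above it on MCD 3, metformin 1 and metformin 3. Most other mouse probes were equally dim, with medians of 258 to 273, and the viral probes, whose miRNAs an uninfected liver should lack, had medians of 247 to 268.

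Above the negative controls were 2, 2, 2 and 4 of the 72 members on the MCD arrays, and 8, 1, 12 and 11 on the metformin arrays. Among the other mouse probes, 18.7% to 26.2% passed on each array, against 1.39% to 16.7% of the members and 7.69% to 15.4% of the viral probes. The counts of members were highest on metformin 3 and metformin 4, where the threshold was also lowest, at 276 and 290. On all the other arrays it was 297.15 or more. Whether the lower threshold sets these counts was not tested. The metformin arrays did not share a high count, since metformin 2 had the lowest of the 8.

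**Figure D1:**
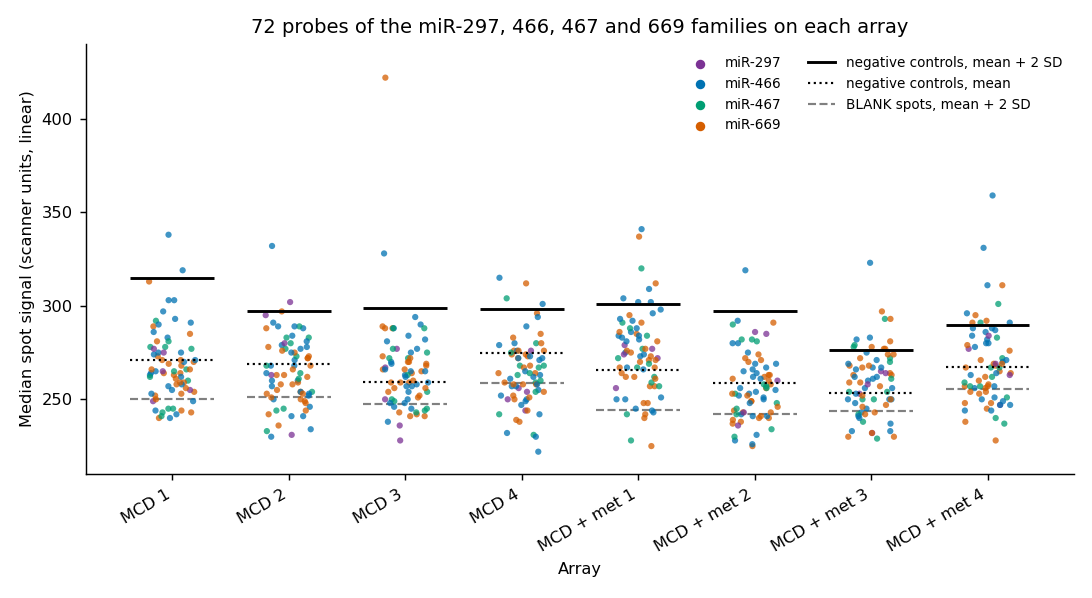
Signal of each of the 72 members (vertical axis, scanner units on a linear scale) on each of the 8 arrays, with 1 point per probe coloured by family and sideways scatter for legibility. The solid, dotted and dashed lines are the mean + 2 SD and the mean of the negative control spots and, for the BLANK spots, the mean + 2 SD. Most points lie between the dashed and the solid line, 1 to 12 lie above the solid line on each array, and the highest point, at 422 on MCD 3, is miR-669i.

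A single member, miR-466i-5p, exceeded the negative controls on all 8 arrays. Its signal was 338, 332, 328 and 315 in MCD-fed mice and 341, 319, 323 and 359 with metformin. The groups overlapped, and the lowest of these values came from MCD 4. Mir466i, its gene, lies on chromosome 13 and not in the Sfmbt2 cluster, and the other arm of the same hairpin, miR-466i-3p, passed on 1 array with signals of 264 to 302. Next in brightness was miR-466h-3p, which passed on 5 arrays with signals of 319, 288, 281 and 301 in MCD-fed mice and 309, 280, 283 and 331 with metformin. For miR-669c*, which passed on 3 arrays, they were 313, 263, 288 and 296 against 337, 291, 277 and 311.

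Of the other 69 members, 6 passed on 2 arrays, 14 on 1 array and 49 on none. The share that passed on all 8 arrays was 1.39% of the members, 15.1% of the other mouse probes and 5.13% of the viral probes. Against the more lenient BLANK spots, 18 members passed on all 8 arrays (25%), as did 41.5% of the other mouse probes and 20.5% of the viral probes. No array put all members above the BLANK spots, the counts being 43 to 65 of 72.

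The 4 families covered much the same range of signal, their dimmest members having means of 244 to 253. The brightest member of each, by mean over the 8 arrays, was miR-466i-5p at 332, miR-467a* at 284 and the shared probe of miR-297b-3p, miR-297a* and miR-297c* at 269, while that of miR-669 was miR-669c*, with group means of 290 in MCD-fed mice and 304 with metformin. The dimmest member was miR-466n-3p, with a mean of 244. In families this dim, the order of the members was only loosely kept from liver to liver. Across the 72 members, which share their arrays, the normalized values of 2 arrays of one group had a median Pearson correlation of 0.455 (0.234 to 0.705), against 0.971 (0.960 to 0.976) across the 1024 other mouse probes, whose signals span a far wider range. In ranks the contrast was smaller, with a median Spearman correlation of 0.403 for the members and 0.659 for the other mouse probes. Between arrays of different groups the median Pearson correlations were 0.452 and 0.967, so that 2 livers of one group were hardly more alike in these families than 2 livers of different groups.

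Other mouse miRNAs built of such repeats were measured on the same arrays. Outside the chromosome left out above, the 4 other mouse probes found to hold UGUGUGU or ACACACA are miR-574-5p, miR-1187, miR-3082-5p and miR-3097-5p. The brightest 2 of them are printed for comparison with the members above, with the seed in capitals.
miR-574-5p (chr5:64970328-64970350, + strand): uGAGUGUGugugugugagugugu
miR-1187 (chr5:82798964-82798986, - strand): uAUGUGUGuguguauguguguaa
In mean signal miR-574-5p reached 305 and miR-1187 287, and they passed the negative controls on 6 and on 2 arrays. For miR-3082-5p and miR-3097-5p the means were 280 and 258, with passes on 2 arrays and on none.

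The label of the tissue could be read from other probes of the same arrays. Hepatocyte miR-122 had a mean signal of 20904, miR-192 of 3618 and miR-194 of 2849, and each passed the negative controls on all 8 arrays. Of the 14 probes for miR-290 to miR-295, the cluster that marks embryonic stem cells and early trophoblast, 13 passed on no array, and miR-290-5p, with a mean of 341, passed on all 8. Summed over these 14 probes, the signal ranged from 3685 to 3860 on the MCD arrays and from 3620 to 3808 on the metformin arrays. Some other markers differed between the groups. Summed over the 3 liver probes, the unnormalized signal was 22827 to 25829 on the MCD arrays and 26946 to 36548 with metformin. Their normalized log2 differences were 0.42 to 0.52. Sums of dim probes could lie apart too. For the muscle miR-133a and miR-206, with means of 277 and 239, they were 515 to 561 on the MCD arrays and 476 to 513 with metformin. The sums of the brain miR-124 and miR-9 overlapped, at 492 to 550 and 511 to 530. For the 2 leukocyte probes, miR-142-3p and miR-223, the sums were 742 to 1187 on the MCD arrays and 598 to 825 on the metformin arrays, which overlap, with normalized log2 differences of -0.60 for miR-223, at an unadjusted p under 0.05, and -0.0072 for miR-142-3p. The endothelial miR-126-3p was higher by 0.29 on that scale, also at an unadjusted p under 0.05, with signals of 3475 to 4700 on the MCD arrays and 4094 to 5439 on the metformin arrays. The stellate cell markers miR-199a-5p and miR-214 had differences of -0.30 and -0.35 that did not pass, and summed to 758 to 1416 on the MCD arrays and 600 to 1114 on the metformin arrays. Their part in the results below was not tested, and in whole liver fewer cells of a type and less RNA per cell cannot be told apart.

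To compare the livers of MCD-fed mice treated with metformin with those of mice on the diet alone, the signals were corrected for local background and scaled between arrays, and log2 differences are given as MCD + metformin minus MCD. An offset of 50 added in the correction makes these differences understate the change of dim probes. 66 of the 72 members passed the filter of being above the BLANK spots on at least 4 arrays and were tested with limma together with all 1070 probes that did. The other 6 members, miR-467b, miR-467e, miR-466a-5p, miR-466e-5p, miR-669k* and miR-466n-3p, each passed on 3 arrays, with mean signals of 244 to 252. At the other side of the filter, 6 tested members passed on 4 arrays, miR-297b-5p and miR-466l-5p among them.

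No member passed an adjusted p of 0.05 in limma, and neither did any of the 1070 probes (0%). Without adjustment, 6 of the 66 members (9.09%) were higher with metformin at p under 0.05, the level used below for a call, and 0 were lower, against 6.36% higher and 3.08% lower among all probes tested. The 6 were miR-466n-5p, miR-466o-3p, miR-466h-5p, miR-297b-5p, miR-467e* and miR-669n. By family, they were 3 of 24 tested members of miR-466 and 1 each of 5 in miR-297, 11 in miR-467 and 26 in miR-669. With so many probes called before adjustment in the whole array, a count of 6 is not far above the background, and none of the 6 passed the negative controls on more than 1 array.

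The miR-466n-5p probe had the smallest unadjusted p of the members. Its signal was 271, 253, 246 and 265 in MCD-fed mice and 273, 269, 260 and 263 with metformin, which overlapped. After background correction and scaling, the values were 6.68, 6.63, 6.42 and 6.71 on the log2 scale against 6.94, 7.01, 6.98 and 6.77, and no longer did. The normalized difference was 0.32 ± 0.11 on the log2 scale (SE, n = 4 in each group, limma adjusted p = 0.35). It had passed the negative controls on no array.

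For miR-466o-3p, the signals were 262, 260, 245 and 257 in MCD-fed mice and 284, 253, 267 and 282 with metformin. The value from metformin 2 fell among the MCD values, whereas the other 3 metformin values were above all of them. The normalized difference was 0.31 ± 0.11 on the log2 scale (limma adjusted p = 0.35), and the normalized groups did not overlap. Under the alternatives the difference ran from 0.12 with no background correction to 0.83 in the deposited table of normalized values. This probe too passed the negative controls on no array. With miR-466n-5p it was called in each of the 8 fits that left out 1 array. With no background correction, however, the difference of miR-466n-5p fell to 0.080 and its call was lost.

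The remaining 4 called members depended more on single livers. The signal of miR-297b-5p was 277, 231, 228 and 250 in MCD-fed mice and 277, 236, 258 and 269 with metformin. Replicate 1 of both groups thus gave the same value, and the difference of 0.34 ± 0.14 (log2, SE, limma adjusted p = 0.453) rested on the low values of MCD 2 and MCD 3. In the MCD group the probe was above the BLANK spots on MCD 1 alone, and with metformin on every array but metformin 2. Of the 8 fits that left out 1 array, 4 no longer tested this probe and 2 called it. The call was lost without MCD 2 or MCD 3, where the difference was 0.30 and 0.24, and in the deposited table of normalized values its sign was the opposite, at -0.092. For miR-466h-5p, the 5p arm of the hairpin whose 3p arm was the second brightest member, the signals were 264, 268, 259 and 232 against 302, 266, 253 and 284. Its difference of 0.30 ± 0.13 (limma adjusted p = 0.453) became 0.17 without MCD 4, the lowest of the 8, and its call was lost there and without MCD 3, metformin 1 or metformin 4. The miR-669n probe, whose UG-rich sequence is printed above, gave 240, 248, 273 and 239 against 261, 260, 268 and 257, a difference of 0.27 ± 0.12 (limma adjusted p = 0.453). The highest of these 8 values came from MCD 3, the only MCD array on which the probe was above the BLANK spots. It was above them on all 4 metformin arrays, which alone met the filter. The call was lost without MCD 1, MCD 4, metformin 2 or metformin 3, with differences down to 0.20. Last, miR-467e* gave 260, 254, 250 and 268 against 267, 257, 250 and 301, with overlapping signals and a difference of 0.26 ± 0.12 (limma adjusted p = 0.466). Its highest value came from metformin 4, and the call was lost without that array or without MCD 1, MCD 2 or MCD 3, where the difference was 0.17 at the lowest.

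On the normalized scale the groups did not overlap in 4 of the 66 tested members (6.06%), all higher with metformin: miR-466n-5p, miR-466o-3p, miR-467e* and miR-466i-5p. Among all 1070 probes the share was 2.8% higher and 1.96% lower. In miR-466i-5p the normalized values ran from 7.43 to 7.53 in MCD-fed mice and from 7.53 to 7.77 with metformin, touching to the second decimal, and the difference of 0.15 ± 0.10 (log2, SE) did not pass (limma adjusted p = 0.676). Its signals before correction had means of 328 ± 9.74 and 336 ± 18.4 (SD, n = 4 each).

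In the signals as deposited, by contrast, no tested member was higher with metformin without overlap, and 1 of 66 (1.52%) was lower, against 0.561% higher and 3.74% lower among all probes. That member was miR-466l-5p, with 255, 275, 265 and 276 in MCD-fed mice and 243, 241, 243 and 247 with metformin. All 4 MCD values exceeded the threshold of the BLANK spots and none of the metformin values did. With metformin the probe was thus not counted as above the BLANK spots, although it lay above their means of 216 to 229. It met the filter of 4 arrays through the MCD group alone, and its difference cannot be read as a fold. The normalized difference of -0.23 ± 0.11 (log2, SE, limma adjusted p = 0.539) was the nearest to a call among the lower members. The normalized groups overlapped. This difference was -0.098 with no background correction, -0.42 with an offset of 0 and -0.71 in the deposited table of normalized values.

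**Figure D2:**
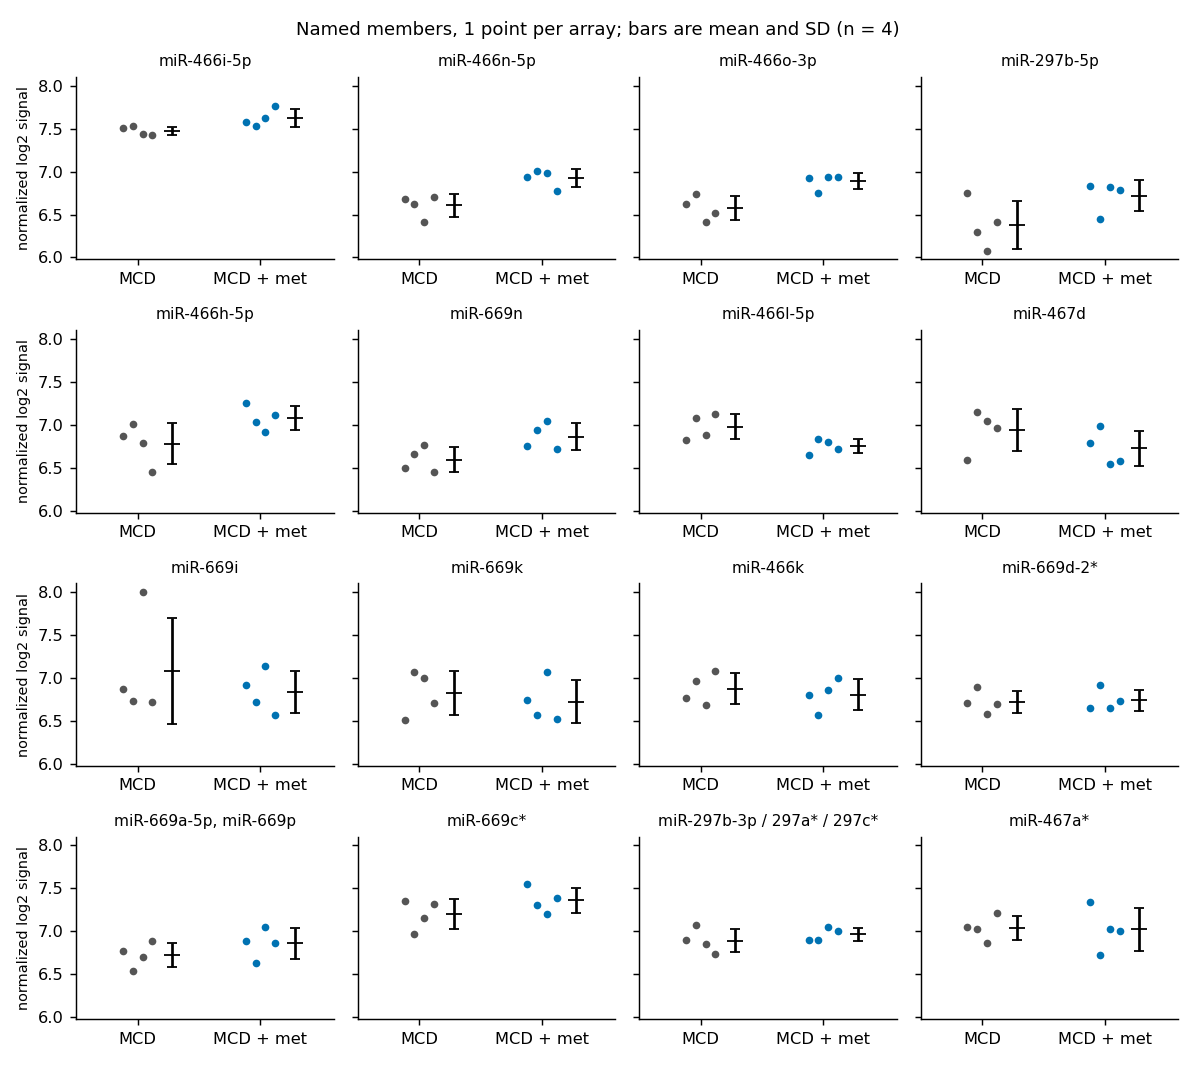
Normalized log2 signal (vertical axis) of the 16 named members in MCD and MCD + metformin livers (MCD + met), with 1 point per array and, beside the points, the mean and SD (n = 4 each). The groups lie apart in miR-466n-5p and barely so in miR-466o-3p and miR-466i-5p, and the single high point of miR-669i is MCD 3.

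Next in order of p on the lower side were miR-467d, miR-669i, miR-669k and miR-466k, and none was called. The signal of miR-467d was 241, 280, 277 and 263 in MCD-fed mice and 257, 258, 229 and 240 with metformin, with a difference of -0.21 ± 0.14 (log2, SE, limma adjusted p = 0.676). MCD 1 lay below the other MCD values here, and without that array the difference was -0.33 and was called. The signal of miR-669i was 273, 254, 422 and 259 against 275, 246, 277 and 248, so that its difference of -0.25 ± 0.23 (limma adjusted p = 0.793) came from MCD 3 alone. Without that array it was 0.062, with the opposite sign. For miR-669k the signals were 253, 288, 288 and 264 against 262, 240, 274 and 248, and for miR-466k 257, 264, 248 and 272 against 250, 228, 240 and 264, both overlapping, with differences of -0.097 ± 0.15 and -0.069 ± 0.13 (log2, SE).

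The study lists 5 probes of these families as changed. Only miR-466o-3p is in its list for metformin, which was drawn from these samples and is not independent of the values given above. The other 4, miR-466i-5p, miR-669c*, miR-669d-2* and the shared probe of miR-669a-5p and miR-669p, are in its list for the MCD diet against a normal diet, a comparison not analysed here. The differences that follow are between metformin and MCD alone and cannot be set against that list. The miR-466i-5p probe is described above. The signal of miR-669c* is given above as well, with overlapping groups and a difference of 0.16 ± 0.12 (log2, SE, limma adjusted p = 0.698). That of miR-669d-2* was 270, 272, 260 and 268 in MCD-fed mice and 262, 272, 247 and 268 with metformin, a difference of 0.019 ± 0.11 (limma adjusted p = 0.976) that turned to -0.023 with quantile normalization. The shared probe of miR-669a-5p and miR-669p gave 271, 242, 259 and 274 against 264, 239, 263 and 265, a difference of 0.13 ± 0.12 (limma adjusted p = 0.782) that was -0.16 in the deposited table. In all 3 the groups overlapped, and miR-669d-2* and the shared probe passed the negative controls on no array.

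Among the brightest members of each family, miR-467a* gave signals of 292, 283, 272 and 304 in MCD-fed mice and 320, 248, 270 and 283 with metformin, the metformin arrays holding both the highest and the lowest value. Its difference was -0.016 ± 0.13 (log2, SE, limma adjusted p = 0.989), and 0.013 with plain subtraction of the background. The shared probe of miR-297b-3p, miR-297a* and miR-297c* gave 275, 280, 267 and 256 against 272, 260, 265 and 277, a difference of 0.075 ± 0.11 (limma adjusted p = 0.895). Neither differed beyond the spread of the livers.

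**Figure D3:**
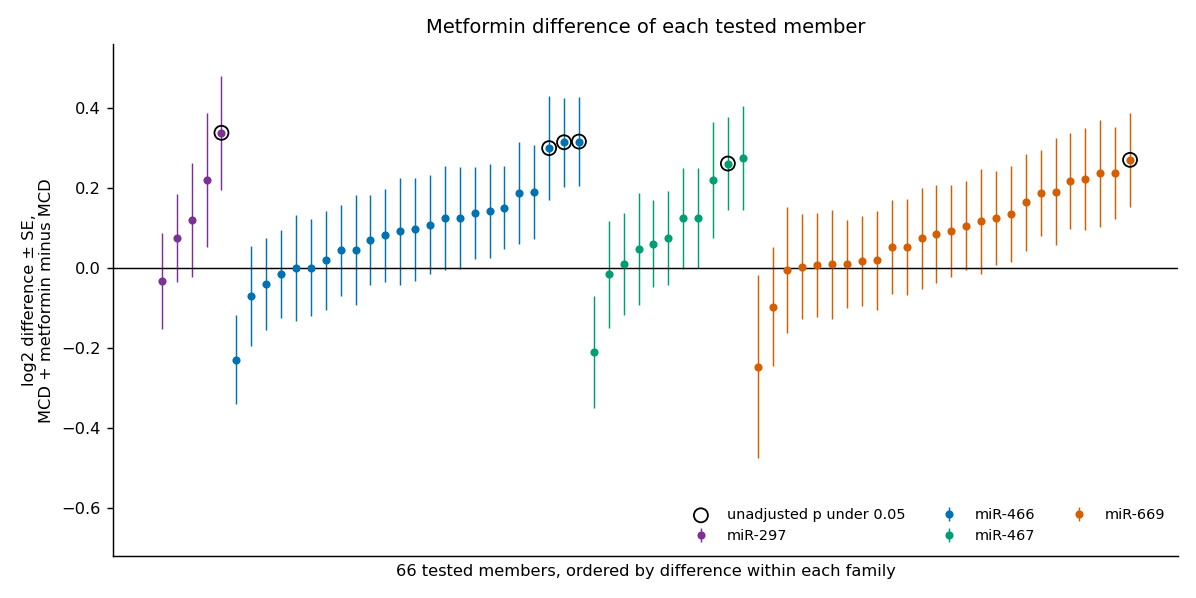
Log2 difference between MCD + metformin and MCD livers (vertical axis) of each of the 66 tested members, ordered within its family, with 1 standard error as the bar. The 6 circled members had an unadjusted p under 0.05, and all 6 lie above 0.

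Most differences of the families were small and of one sign. Of the 66 tested members, 84.8% had a positive normalized difference, with a median of 0.092 and a range of -0.25 to 0.34 on the log2 scale, against 58.4% and a median of 0.029 over all 1070 probes. By family, the median was 0.12 for miR-297, 0.094 for miR-466, 0.074 for miR-467 and 0.088 for miR-669, and each of these medians was above 0 under every alternative run. It was 0.097 over the 51 tested members from genes inside Sfmbt2 and 0.082 over the 9 from genes elsewhere. By arm it was 0.13 for probes named 5p, 0.10 for those named 3p and 0.033 for those with a star, the older mark of the less abundant arm. For the 23 tested probes without a mark of the arm, the largest of these classes, it was 0.085. Among the members that passed the negative controls on no array, 43 were tested, with a median of 0.085, and the 579 other mouse probes of the same kind had a median of 0.012. Bright probes moved the same way: the 155 other mouse probes above the negative controls on all 8 arrays had a median of 0.13, with 72.3% positive. The 30 viral probes tested went the other way, with a median of -0.044 and 40% positive. Of the 4 other repeat probes named above, 2 were positive and 2 negative, with miR-1187 the highest at 0.29 (limma unadjusted p under 0.05). These are descriptions, since the members share their arrays.

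The size of the shift changed with the processing, and the cause was not tested. Signals left uncorrected still hold their background, so their log2 differences are not on the scale of corrected ones. The members' median signal averaged 264 ± 0.75 over the MCD arrays and 264 ± 7.88 over the metformin arrays (SD, n = 4 each). Over the same arrays, the median local background was 156 to 162 in the MCD group and 135 to 143 with metformin, with no overlap, and the mean of the BLANK spots was 227 ± 4.14 and 220 ± 5.78 (SD). The arrays of the 2 groups lay at opposite ends of the scanned area, and where an array lay and which treatment it had cannot be told apart. With no background correction the members' median difference was 0.030, beside 0.0074 over all probes. That setting called 2 members higher, beside 3.83% of all probes tested. With plain subtraction the median was 0.15, beside 0.061 over all probes, and 11 members were called higher, beside 8.04% of all probes. With no shift between the arrays, the median was 0.022, beside -0.041 over all probes, and 2 members were called higher and 1 lower, beside 2.24% and 5.61% of all probes.

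**Figure D4:**
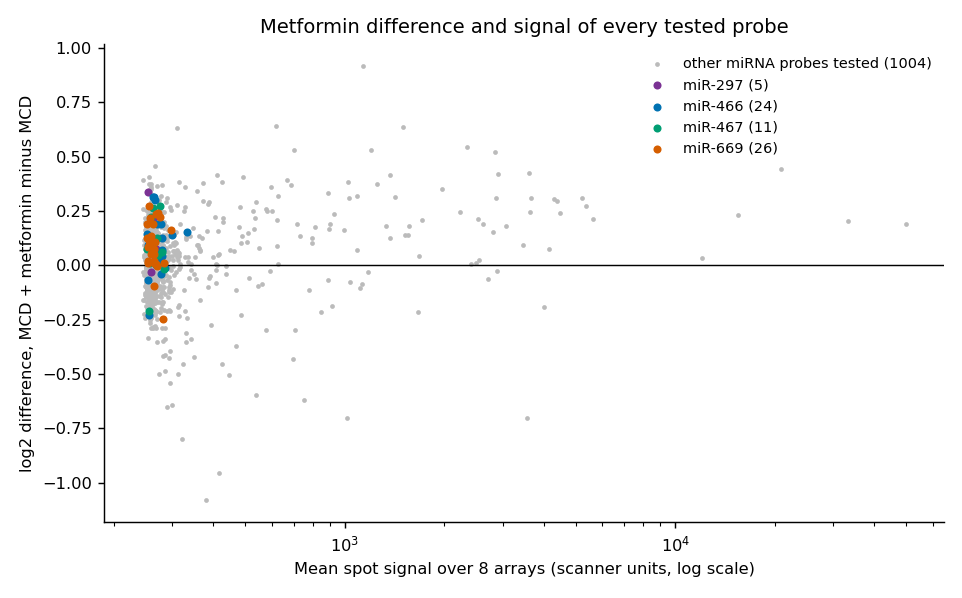
Log2 difference between MCD + metformin and MCD livers (vertical axis) against the mean signal over the 8 arrays (horizontal axis, scanner units, log scale) for the 1070 probes tested, with the 66 tested members coloured by family. The members lie at the dim end, between mean signals of 251 and 332, and their differences run from -0.25 to 0.34.

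A stricter filter left little of the families to compare. When only probes above the negative controls on at least 4 arrays were tested, 2 members remained among 221 probes, miR-466i-5p and miR-466h-3p, and neither was called. Among the 18 members above the BLANK spots on all 8 arrays, 2 were called higher and 0 lower without adjustment, where 9.09% of the 451 probes with that level were called higher and 3.33% lower. The spread between livers was as large for the members as for other probes, with a median pooled SD of 0.17 on the log2 scale in both. No difference of the size found here reached an adjusted p of 0.05 with this number of arrays.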

How the data were processed

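The scanner signals are intensities: the authors read them from the images with the 3D-Gene extraction software, as the median brightness of a spot and of the area around it, and the deposited values are linear, unsubtracted and not normalized. The second file type is a deposited table of the authors' normalized intensities, used only as an alternative, in which 71 members had a value on at least 4 arrays. The methods name normalization to a ribosomal RNA, a baseline at the median of all samples and global normalization. They also name an ANOVA without error correction, a minimum change and Student's t-test.

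Signals were corrected with normexp (offset 50) of limma 3.58.1 in R 4.3.3, which takes off the local background, then taken to log2 and shifted so that arrays agree in the median of the 451 probes that were detected on every array. Detection was the mean + 2 SD of the BLANK spots, and the fit, lmFit and eBayes without pairing and two-sided, took probes detected on 4 arrays or more, with Benjamini-Hochberg adjustment over all 1070. These functions were tested on simulated data. Each probe was spotted 1 time on an array, each array is 1 liver, and precision is limited by their number. The sources used here give no slide or scan date.

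The members and lists were chosen with earlier results of these data known. Named were members above the negative controls on all arrays, the 5 with the smallest p in each direction, those in the study's lists and the brightest of each family; miR-467e*, miR-466h-3p and miR-466i-3p were added after their values were seen. No columns lacked a sample (0). Alternatives covered background, scaling, filters, the deposited table, the test, the replicate block and leaving out each array. Coordinates and sequences are RefSeq's (GRCm38.p6).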

Additional observations from a re-analysis of the deposited data

Results flagged for a closer look

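In 5 of the 144 sets of 4 arrays (72 members in 2 groups), 1 signal stood apart from the other 3 of its group by Dixon's test, whereas chance alone gives about 1 in 20, or 7.2 sets. The signal of miR-669i on MCD 3 was 422, against 254 to 273 on the other MCD arrays. That of miR-466f-3p on MCD 1 was 303, against 269 to 272. The shared probe of miR-669a-5p and miR-669p was at 239 on metformin 2, against 263 to 265 on the other metformin arrays. The signal of miR-669d* on metformin 1 was 286, against 238 to 243, and that of miR-669k* on metformin 3 was 246, against 225 to 228. The 5 values fell on 5 different arrays.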

How the results depend on the processing

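The count of members past an adjusted p of 0.05 was 0 under every alternative run, and the members' smallest adjusted p ranged from 0.16 to 0.619. The count of members higher without adjustment, 6 in the report, was 11 with plain subtraction, 2 with no background correction, 2 with no shift between arrays, 2 among members detected on all arrays, 0 among those above the negative controls, and 3 to 8 when 1 array was left out. Over all probes tested, the share called higher moved too, from 6.36% to 8.04%, 3.83%, 2.24%, 9.09% and 10.9% in the first 5 of these settings. The count of members higher was 3 without MCD 1 and 3 without MCD 3, beside 5.24% and 6.41% of all probes tested. The count of members lower, 0 in the report, was 1 with normexp offset 0, quantile normalization, a median shift over all probes, no shift, the deposited table and the methods' t-test, which called 6 higher, and 0 to 1 with 1 array left out. That member was miR-466l-5p in each of the 6 settings, and the 1 without MCD 1 was miR-467d. In the main fit miR-466l-5p met the filter through the MCD arrays alone. Over all probes tested, 2.99% to 5.61% were called lower in the 6 settings and 3.69% without MCD 1. The cause of these changes was not tested. The members' median difference of 0.092 was 0.15 with plain subtraction, 0.030 with no background correction, 0.022 with no shift, 0.144 over the 2 members above the negative controls and 0.144 in the deposited table. Over all probes tested the median was 0.029 in the main fit and 0.061, 0.0074, -0.041, 0.089 and 0.026 in these settings. With 1 array left out the members' median was 0.072 to 0.105. The number of members whose groups did not overlap, 4 in the report, was 1 with no background correction, 2 with no shift, 2 among members detected on all arrays and 1 among those above the negative controls. With 1 array left out it was 4 to 11, the highest values being 11 without metformin 2 and 8 without metformin 3. Leaving out any of the other arrays gave 4 to 6. Smaller groups overlap less easily, which holds for each of these fits alike, and why 2 of them gave more was not tested. The member above the negative controls on all 8 arrays remained 1 with the other thresholds on the negative controls, and 18 members passed the BLANK spots.

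Of the named members, miR-467a* changed sign with plain subtraction (0.0132) and between -0.121 and 0.0843 with 1 array left out. The difference of miR-669d-2* was -0.023 with quantile normalization, -0.0514 with no shift, and -0.0403 to 0.0718 with 1 array left out. In the deposited table, miR-297b-5p was at -0.0923 and the shared probe of miR-669a-5p and miR-669p at -0.161. With 1 array left out, miR-669i ran from -0.383 to 0.0617 and miR-466k from -0.141 to 0.0125.

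Replicate numbers are shared by the 2 groups, but same-numbered arrays did not deviate together (correlations of 0.022, 0.031, -0.301 and -0.136). The numbers were not used as a pairing, though these few correlations cannot exclude one, and whether arrays shared a slide is not known. With the replicate block, 6 members were higher and 0 lower, as without it. Signal over background was low: the median signal of the members was 256 to 274, and the negative controls had a mean of 253 to 275.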
